A study of Mus musculus with 2 samples.

Results

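The S100 genes encode small calcium-binding proteins. The 8 members described here, S100a1, S100a4, S100a6, S100a8, S100a9, S100a10, S100a11 and S100a13, were chosen by gene symbol from the 32285 genes counted in single cells of mouse periodontal ligament, which anchors the root of a tooth in its socket. They are 8 of the 17 S100 family genes listed. The choice applied no cutoff to a measured value, but it was made with earlier results of these data known. Cells came from male C57BL/6J mice aged 8 weeks. In the OTM (orthodontic tooth movement) library, the upper left first molar had been pulled forward with a force of 10 g for 6 days. The Control library held the same tissue from the right side, which carried no load. Each library pooled 5 mice, so there was 1 library per group, no spread between animals could be measured and no test was possible. Side of the mouth and load therefore cannot be told apart.

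S100 proteins bind calcium through EF-hand motifs and then change shape and grip partner proteins, among them annexins, myosins and receptors. S100A8 and S100A9 pair to form calprotectin, which fills the cytosol of neutrophils, withholds zinc and manganese from microbes and, once released, acts on innate immune receptors. In periodontal tissue, calprotectin is best known as a product of neutrophils and of the gingival epithelium, while S100A4 and S100A6 are known from fibroblasts and cells of the bone surface.

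All 8 genes lie on mouse chromosome 3 (GRCm38, GENCODE annotation). S100a8 (90668978 to 90670035, plus strand) and S100a9 (90692632 to 90695721, minus strand) are neighbours. S100a4 (90603771 to 90606045, plus strand) and S100a6 (90612882 to 90624181, plus strand) lie upstream of them. S100a1 (90511034 to 90514392, minus strand) and S100a13 (90514435 to 90524581, plus strand) start back to back with 42 bases between them. S100a11 (93520488 to 93526287) and S100a10 (93555080 to 93564643), both on the plus strand, lie apart from the rest. The annotation also holds a processed pseudogene, S100a11-ps, on chromosome 12, so reads of S100a11 may have been split or dropped where the copies are alike.

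The bases just upstream of 4 members are shown because the expression pattern turns on these genes: S100a8 and S100a9 varied together, and S100a4 and S100a6 were higher in the OTM library in fibroblast-like cells. The sequences are from RefSeq (GRCm38.p6), read 5′ to 3′ on the strand of the gene, and end before the gene's start in GENCODE and in RefSeq. RefSeq sets the start of S100a8 at 90669071 and that of S100a6 at 90612894, so the bases shown for these 2 stop short of it. They cover chr3:90668821-90668977 (plus), chr3:90695722-90695971 (minus), chr3:90603520-90603769 (plus) and chr3:90612644-90612881 (plus). Capitals mark an ETS site of the PU.1 kind in S100a8 (GAGGAAG, read on the opposite strand), a C/EBP site in S100a9 (TTGCNNAA) and a TATA box in S100a4 (TATAAA).
S100a8: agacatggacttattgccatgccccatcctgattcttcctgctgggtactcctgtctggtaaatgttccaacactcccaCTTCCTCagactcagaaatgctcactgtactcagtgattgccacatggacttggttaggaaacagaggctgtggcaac
S100a9: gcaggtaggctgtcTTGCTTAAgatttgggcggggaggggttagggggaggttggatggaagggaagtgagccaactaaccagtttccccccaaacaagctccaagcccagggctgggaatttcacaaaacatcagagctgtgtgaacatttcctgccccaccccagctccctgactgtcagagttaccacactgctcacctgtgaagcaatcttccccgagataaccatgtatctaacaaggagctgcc
S100a4: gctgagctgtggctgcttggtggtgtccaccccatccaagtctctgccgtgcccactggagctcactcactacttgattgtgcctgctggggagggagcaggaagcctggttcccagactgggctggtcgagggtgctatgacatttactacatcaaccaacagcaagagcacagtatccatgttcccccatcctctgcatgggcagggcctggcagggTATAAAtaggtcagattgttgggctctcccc
S100a6: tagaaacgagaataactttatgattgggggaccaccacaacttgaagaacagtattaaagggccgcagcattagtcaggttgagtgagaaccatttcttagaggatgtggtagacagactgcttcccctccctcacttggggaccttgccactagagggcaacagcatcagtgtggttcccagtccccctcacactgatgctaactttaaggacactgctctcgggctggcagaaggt

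These 3 motifs and the AP-1 site (TGANTCA) were searched on both strands in windows of 250 bases before to 50 after the start of 7 members with an entry and of 32851 promoters in all. The TATA box was in 3 of the 7 (S100a4, S100a8 and S100a9) and in 13.6% of all promoters. The C/EBP site was in S100a9 alone among the 7 and in 10.8% of all, and the AP-1 site in S100a11 alone, at 2 places, and in 7.81% of all. The ETS site was in S100a4 and S100a8 and in 13.6% of all. Some of these matches lie outside the bases shown, and the marked matches do not overlap another searched motif. No searched motif was in the S100a6 window. A match in letters is no measure of binding.

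The libraries held 369 Control and 1539 OTM barcodes, none shared, with 5723299 and 36010801 UMIs (unique molecular identifiers, one per captured RNA molecule). After filtering, 348 and 1412 cells remained, with a median of 14877 and 19583 UMIs. Cells were grouped into classes by marker genes that include no S100 gene, and classes are called "-like" for that reason. Fibroblast-like cells, the defining cells of this tissue, were 34.5% of the Control library and 38.2% of the OTM library, with 14 and 15 of the 15 fibroblast markers detected (Mfap5 at 0 in Control). Levels are counts per 1e+06 UMIs (CPM) over all cells of a class, not scaled by gene length. All intervals are 95% intervals for counting error of UMIs or cells and hold no variation between mice. A gene was called 2-fold higher or lower where the ratio of OTM over Control reached 2-fold and the library with the higher level held at least 20 UMIs.

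The family divided by cell class in both libraries. S100a8 and S100a9 were highest in granulocytes and next in epithelial-like cells. S100a6, S100a10 and S100a11 were found in epithelial-like, endothelial-like and stromal cells and in phagocytes, S100a6 and S100a11 in neutrophil-like cells too. In OTM, S100a10 was at 2142 CPM in osteoclast-like and 1958 CPM in macrophage or monocyte-like cells, above the 1751 CPM of endothelial-like and 1742 CPM of epithelial-like cells. S100a4 was highest in dendritic cell-like (2539 CPM, 5 cells) and macrophage or monocyte-like cells (665 CPM) in Control. In OTM it was highest in osteoclast-like and then macrophage or monocyte-like cells (3682 CPM). Fibroblast-like cells held 21.3 CPM in Control, below the 97.4 CPM of epithelial-like cells. In OTM, mural-like cells held 1653 CPM, osteoblast lineage-like cells 825 and fibroblast-like cells 373. T or NK cell-like (1300 CPM) and Schwann or glial-like cells (954 CPM), 15 OTM cells each, lay above the last 2. S100a1 and S100a13 were low in every class, at 154 CPM or less and 338 CPM or less.

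**Figure D1:**
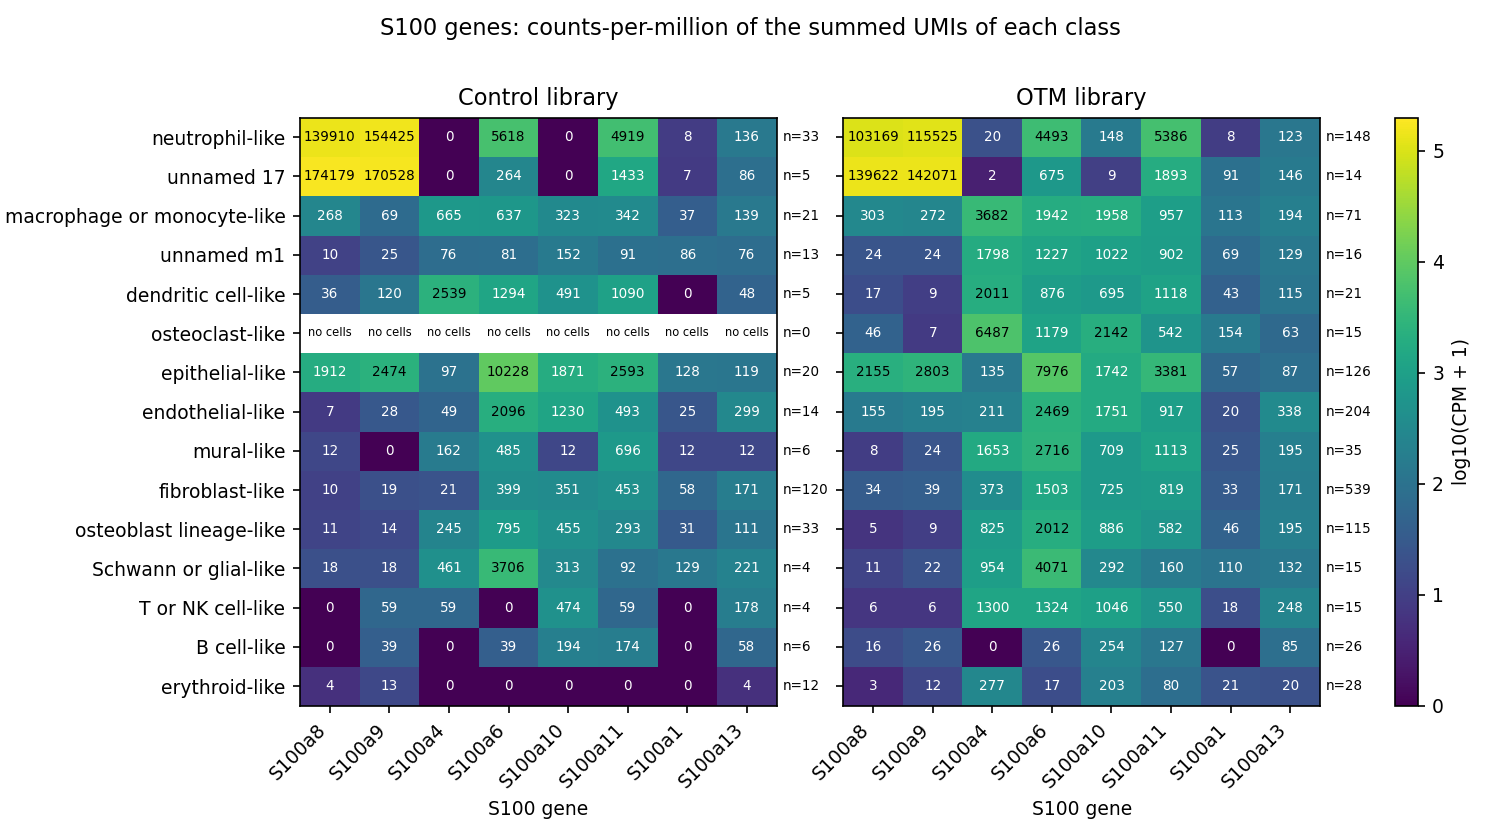
Level of each S100 gene (CPM of the summed UMIs, printed in the cells; colour, log10 of CPM + 1) by class in the Control and OTM libraries, with the number of cells at the right; mast cell-like cells and the low-depth cluster 9 are left out. S100a8 and S100a9 reach 139910 and 154425 in Control neutrophil-like cells, and no osteoclast-like cell was found in Control.

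Neutrophil-like cells (33 Control and 148 OTM cells, with median depths of 11322 and 5412.5 UMIs) carried most of the calprotectin UMIs. S100a8 stood at 139910 CPM in Control (53670 UMIs) and at 103169 in OTM (115221 UMIs). S100a9 stood at 154425 and 115525 CPM (59238 and 129020 UMIs). Both were thus lower in the OTM class, with log2 ratios of -0.44 (interval -0.45 to -0.42) and -0.42 (-0.43 to -0.40), and neither reached 2-fold. The pair took 29.4% of all UMIs of the class in Control and 21.9% in OTM. Among the named classes with at least 20 cells the next was epithelial-like, 73.2-fold lower than neutrophil-like for S100a8 in Control and 47.9-fold lower in OTM.

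The lower class level went with a different makeup of the class. Cluster 8, led by Retnlg, Mmp8 and Ltf, genes of neutrophil granules, held 21 Control and 51 OTM cells. Cluster 6, led by Acod1, Il1b and Csf3r, genes of activated neutrophils and the receptor for their growth factor, held 12 and 97. In cluster 8, S100a8 was at 154940 CPM in Control and 140724 in OTM, with a log2 ratio of -0.14 (-0.15 to -0.12). In cluster 6 its 59688 and 59934 CPM gave a log2 ratio of 0.01 (-0.04 to 0.06). S100a9 was at 169835 and 152242 CPM in cluster 8 and at 72178 and 73254 in cluster 6. The 2 clusters thus differed more from each other than the libraries did within either cluster.

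Another granulocyte cluster, 17, stayed unnamed: its leading genes Elane, Fcnb, Camp and Chil3 are those of immature granulocytes. Its 5 Control and 14 OTM cells held S100a8 at 174179 and 139622 CPM and S100a9 at 170528 and 142071 CPM. Per cell, S100a8 and S100a9 together had a median of 35.8% and 33.2% of UMIs in cluster 17, 31.2% and 30.0% in cluster 8 and 12.6% and 13.2% in cluster 6. The 2 genes went together over the neutrophil-like cells, with Pearson r of log2(CPM + 100) of 0.96 over 33 Control cells and 0.93 over 148 OTM cells. These cells share a library, and depth enters both values.

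**Figure D2:**
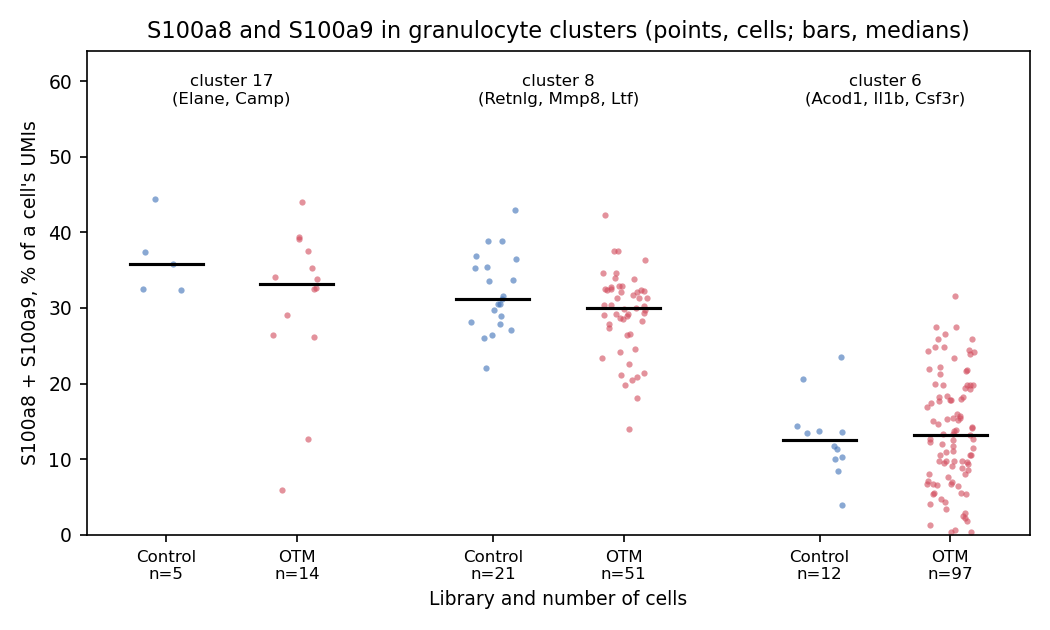
Share of each cell's UMIs from S100a8 and S100a9 together (percent, vertical axis) in granulocyte clusters 17, 8 and 6 of the Control and OTM libraries; points are cells and bars medians. Cluster 6 sits lower than clusters 8 and 17 in both libraries, with medians of 12.6% and 13.2%.

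The other members separated the granulocyte stages in another way. S100a6, which binds the calcyclin-binding protein and annexins, was at 264 CPM in Control and 675 in OTM in cluster 17, at 5896 and 3770 in cluster 8 and at 4130 and 5326 in cluster 6. S100a11, a partner of annexin A1, was at 1433 and 1893 CPM in cluster 17, 4869 and 4390 in cluster 8 and 5187 and 6532 in cluster 6. Both were thus lowest in cluster 17, where S100a8 and S100a9 were high. Over the whole neutrophil-like class, S100a6 was at 5618 and 4493 CPM (log2 ratio -0.32, -0.40 to -0.25) and S100a11 at 4919 and 5386 (0.13, 0.06 to 0.21).

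S100a4 and S100a10 were close to absent from neutrophil-like cells. S100a10, the partner of annexin A2 on the cell surface, had 0 UMIs in Control and 165 UMIs (148 CPM) in OTM. Against a set value of 3 Control UMIs (7.82 CPM) this was 18.9-fold higher, a ratio that is not a limit of the counting interval. One OTM cell held 61.2% of those UMIs, and without it the level was 7.75-fold higher against the same 3 UMIs. S100a4 had 0 UMIs in Control and 22 in OTM, 2.52-fold higher against 3 Control UMIs. One OTM cell held 68.2% of the 22, and without it the 2-fold call was lost. In the same OTM class the 12 endothelial markers summed to 584 CPM with all 12 detected, against 20.9 CPM with 2 of 12 in Control (Cdh5, Kdr, Emcn, Flt1, Tie1, Egfl7, Cldn5, Plvap, Esam and Eng at 0). The 14 osteoblast markers summed to 901 CPM with 8 detected against 93.8 CPM with 6, Sp7, Dmp1, Phex, Sost, Mepe and Col22a1 being at 0 in both and Bglap2 and Alpl in Control. Their part in the S100a10 difference was not tested. These were the 2 members called higher of 7 with enough UMIs, 0 being lower. Among all 3834 genes with enough UMIs in this class, 22% were called higher and 1.56% lower.

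Mononuclear phagocytes held the largest set of members higher in the OTM library. In macrophage or monocyte-like cells (21 Control, 71 OTM), S100a4, which binds non-muscle myosin, was at 665 CPM in Control (144 UMIs) and 3682 CPM in OTM (5096 UMIs), with a log2 ratio of 2.47 (2.23 to 2.72). S100a10 was at 323 and 1958 CPM (2.60, 2.26 to 2.96). S100a6 was at 637 and 1942 CPM (1.61, 1.36 to 1.87). These 3 genes were higher in OTM. Their intervals lay wholly above 2-fold, as did those of S100a11 and of S100a9, the latter resting on few cells. S100a11 was at 342 and 957 CPM (1.48), S100a9 at 69.3 and 272 CPM (1.98) and S100a1, known as a partner of the calcium pump of muscle, at 37.0 and 113 CPM (1.61), the last from 8 Control UMIs. S100a8 (268 and 303 CPM) and S100a13 (139 and 194 CPM) were not called. The calprotectin values rested on few cells. Cells with at least 10 UMIs of the pair were 1 of 21 in Control, with 83.6% of the pair's UMIs and 41 neutrophil-marker UMIs, and 14 of 71 in OTM, with 93.2% and a median of 7 neutrophil-marker UMIs against 1 in the rest. Without them the pair was at 60.6 CPM in Control and 48.3 CPM in OTM, the opposite order. In all, 6 of 8 members were called higher, S100a9 among them, and 0 lower, against 22.6% higher and 9.92% lower among 5283 genes of the class. The median log2 ratio was 1.61 for the members and 0.43 for all genes. In this class the 14 osteoblast markers summed to 545 CPM in Control (8 detected; Bglap2, Dmp1, Phex, Sost, Mepe and Col22a1 at 0) and 6908 CPM in OTM (11 detected; Sp7, Dmp1 and Sost at 0), and their part in these differences was not tested. The 15 fibroblast markers were no higher, at 845 and 627 CPM (8 and 11 detected; Pdgfra, Fmod, Tnmd and Dpt at 0 in both).

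Within single clusters the picture differed. Cluster m0 (16 Control and 13 OTM cells, led by Mrc1 and C1q genes, markers of resident macrophages) held no member past 2-fold: S100a4 was at 68.2 and 64.5 CPM, S100a6 at 149 and 175, S100a10 at 192 and 111 and S100a11 at 136 and 129. Cluster m4 (4 and 16 cells, led by Ly6c2, Ccr2 and F13a1, genes of monocytes) was high in both libraries, with S100a4 at 2496 and 3040 CPM and S100a6 at 2139 and 2632 CPM. Of its 8 members' ratios, that of S100a10, at 713 and 1597 CPM, was past 2-fold upwards (1.16, 0.68 to 1.68). S100a8 was past 2-fold downwards, from 55 Control and 78 OTM UMIs, but 1 Control cell held nearly all of the 55. Clusters m2 (led by Lyz1; 1 and 22 cells) and m5 (led by Trem2 and Gpnmb, genes of lipid-handling macrophages; 0 and 20 cells) were nearly all OTM, with S100a4 at 5028 and 2989 CPM in OTM. The class difference in S100a4, S100a6 and S100a10 thus went with which clusters filled the class: 16 of 21 Control cells lay in m0 and 13 of 71 OTM cells did.

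Cluster m1 stayed unnamed (13 Control and 16 OTM cells, led by Ccl4 and the antigen-presentation genes H2-Aa and Cd74). There S100a4 was at 76.2 and 1798 CPM (log2 ratio 4.56, 3.83 to 5.41), S100a6 at 81.3 and 1227 CPM (3.91, 3.20 to 4.74) and S100a11 at 91.5 and 902 CPM (3.30, 2.62 to 4.08). S100a10 was at 152 and 1022 CPM (2.74, 2.20 to 3.33). Without the OTM cell that held most UMIs of each gene, these 4 were still 5.71-fold to 19.9-fold higher. In dendritic cell-like cells (5 and 21), S100a4 was at 2539 and 2011 CPM and S100a6 at 1294 and 876 CPM, but 1 of the 5 Control cells held 70.8% of the S100a4 UMIs. Without it, Control was at 1001 CPM and S100a4 was 2.01-fold higher in OTM, so no direction is read there. Osteoclast-like cells, which break down bone, numbered 15 in OTM and 0 in Control. All 15 held S100a4, at 6487 CPM (6320 to 6658), with S100a10 at 2142 CPM and S100a6 at 1179 CPM, of which 1 cell held 52.4%.

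The calprotectin genes were uneven among these phagocytes. In OTM cluster m5, S100a8 was at 689.9 CPM and S100a9 at 849.5, with UMIs in 12 of 20 cells, but 1 cell held 277 of the pair's 598 UMIs. In cluster m4, S100a8 came without S100a9: in OTM it had 78 UMIs in 7 of 16 cells against 1 UMI of S100a9, so S100a9 gave 1.27% (0.03 to 6.85%) of the pair. The 55 Control UMIs of S100a8 in m4 lay nearly all in 1 cell (54 UMIs). In neutrophil-like cells S100a9 gave 52.5% of the pair in Control and 52.8% in OTM. The pair's ratio in m4 therefore differed from that of neutrophil-like cells beyond counting error.

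**Figure D3:**
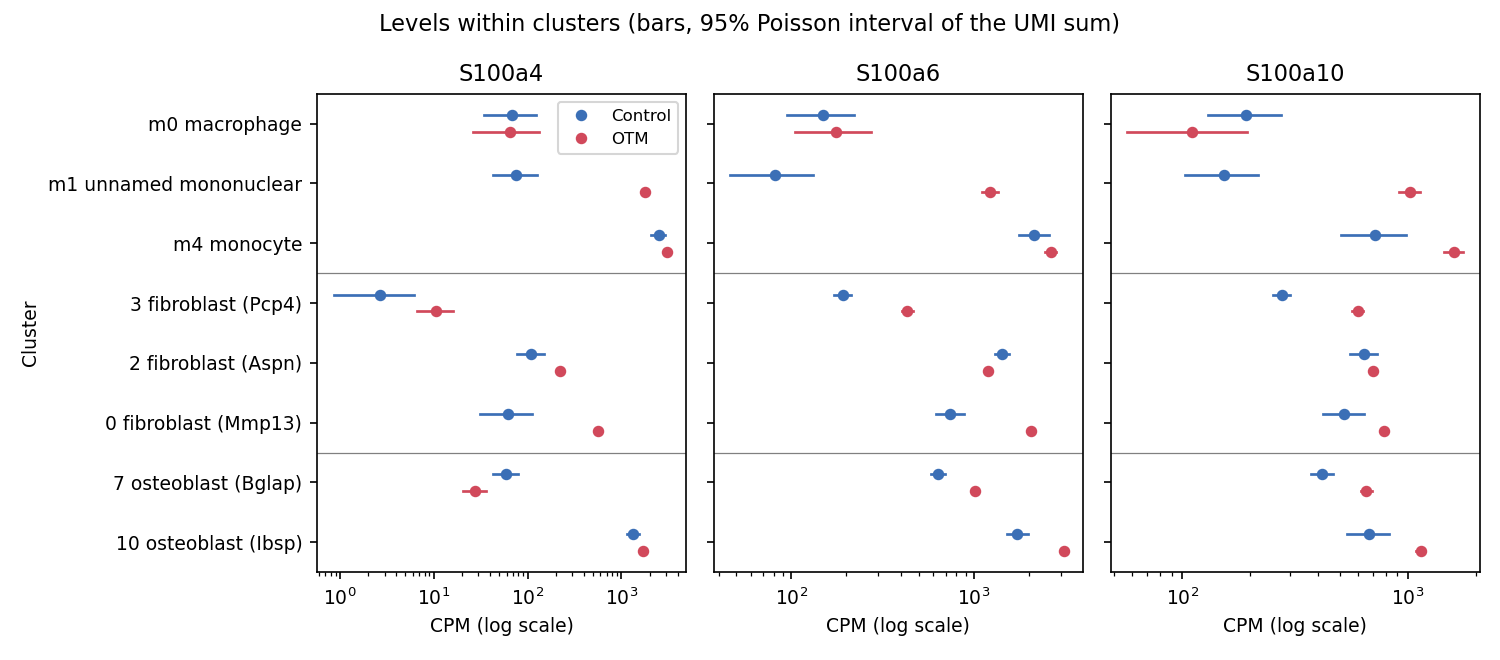
Level (CPM, log scale) of S100a4, S100a6 and S100a10 in single clusters of phagocytes, fibroblast-like and osteoblast lineage-like cells in the Control (blue) and OTM (red) libraries, with 95% Poisson intervals of the summed UMIs as bars. S100a4 overlaps between libraries in m0 (68.2 and 64.5) and stands apart in m1 and in fibroblast cluster 0.

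Fibroblast-like cells (120 Control, 539 OTM) held the clearest S100a4 difference of the stromal classes. S100a4 was at 21.3 CPM (53 UMIs) in Control and 373 CPM (5060 UMIs) in OTM, a log2 ratio of 4.13 (3.74 to 4.55). S100a6 was at 399 and 1503 CPM (1.91, 1.82 to 2.01), S100a10 at 351 and 725 CPM (1.05, 0.95 to 1.15) and S100a11 at 453 and 819 CPM (0.85, 0.76 to 0.94). S100a13, which aids the export of fibroblast growth factor 1, was at 171.5 and 171.4 CPM (-0.00, -0.15 to 0.15), and S100a1 at 57.6 and 32.6 CPM (-0.82, -1.09 to -0.54). The family thus moved apart in these cells, with S100a4 and S100a6 far higher, S100a13 level and S100a1 lower but not 2-fold. Cells with a UMI of S100a4 were 16.7% in Control and 48.2% in OTM, and 3.39% and 16.7% after every cell was thinned to 1500 UMIs. In erythroid-like cells, a class that should lack it, the shares were 0% and 7.14%, and after thinning 0 of 12 cells and 3.70% of 27, at median depths of 19638 and 15012 UMIs against 19156 and 22313 in fibroblast-like cells.

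By cluster, S100a4 was at 2.64 CPM (5 UMIs) and 10.7 CPM in cluster 3 (89 Control and 103 OTM cells, led by Pcp4 and Wif1), at 109 and 224 CPM in cluster 2 (23 and 189 cells, led by Aspn) and at 62.4 and 558 CPM in cluster 0 (7 and 219 cells, with the collagenase Mmp13 among its leading genes), where 1 Control cell held 7 of 11 UMIs. S100a4 was higher in OTM within each of the 3, by log2 ratios of 2.01 (0.58 to 3.77), 1.03 (0.56 to 1.55) and 3.16 (2.32 to 4.16). S100a6 was at 191 and 432 CPM in cluster 3, 744 and 2055 in cluster 0 but 1425 and 1199 in cluster 2, where it was lower in OTM (-0.25, -0.38 to -0.11). The class ratio also held the shift of cells from cluster 3, with 89 of 120 Control cells, to clusters 0 and 2, with most of the OTM cells. In the class the 14 osteoblast markers summed to 1789 CPM in Control (10 detected; Dmp1, Sost, Mepe and Col22a1 at 0) and 4083 CPM in OTM (12 detected; Sost and Mepe at 0), and their part was not tested. Macrophage markers, 13 in the list, were level, at 150 CPM (8 detected; Adgre1, Ms4a7, Fcgr1, Ly6c2 and Ccr2 at 0) and 158 CPM (10 detected; Adgre1, Fcgr1 and Ccr2 at 0).

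S100a8 and S100a9 were also called higher in fibroblast-like cells, at 9.66 and 34.0 CPM and at 18.5 and 38.7 CPM, but 2 of 539 OTM cells held 79.8% of their UMIs. Without those 2 cells, S100a8 and S100a9 together were at 28.2 CPM in Control and 14.7 in OTM, the opposite order. The 2 cells held a median of 19 neutrophil-marker UMIs, against 0 in the other cells. After thinning, 0% of Control and 0.95% of OTM fibroblast-like cells had an S100a8 UMI. In erythroid-like cells the shares were 0% and 3.70%, but of only 12 and 27 cells, with an OTM interval of 0.09 to 19.0%. So wide an interval cannot tell the fibroblast-like share from background, and no expression is read from it. Of 8 members 5 were called higher and 0 lower, the 5 including this pair, against 6.88% and 5.66% of 11867 genes. The median log2 ratio was 1.05 for the members and 0.05 for all genes.

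Osteoblast lineage-like cells (33 Control, 115 OTM) had S100a6 at 795 and 2012 CPM (1.34, 1.23 to 1.46) and S100a4 at 245 and 825 CPM (1.75, 1.55 to 1.96). S100a4 marked one of the 2 clusters: cluster 10, led by Ibsp and Spp1 of early bone matrix, had 1341 and 1702 CPM, and cluster 7, led by Bglap (osteocalcin, of mature osteoblasts), had 58.4 and 27.6 CPM. The order within cluster 7 was the reverse of the class, with a log2 ratio of -1.08 (-1.70 to -0.46). Cluster 10 had 11 of the 33 Control cells of the class and 59 of the 115 from OTM. S100a6 kept its direction in both, at 635 and 1009 CPM in cluster 7 and 1731 and 3115 CPM in cluster 10, though neither reached 2-fold. Both genes were the 2 called higher of 6 with enough UMIs, 0 being lower, against 9.89% and 1.89% of 8461 genes. The count was 0 or 1 under 9 alternative settings: S100a6 stayed 2-fold higher in 6 of 15 (0.51 to 1.34), and S100a4 turned sign in some.

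Mural-like cells, the muscle-like cells around vessels, showed the same direction on few Control cells (6, against 35 OTM). S100a4 was at 162 and 1653 CPM (3.35, 2.58 to 4.27) and S100a6 at 485 and 2716 CPM (2.49, 2.03 to 2.98). S100a10 rested on 1 Control UMI (12.4 CPM) against 680 (709 CPM), a log2 ratio of 5.83 (3.35 to 11.14). Pooled over these 3 stromal classes, S100a4 was at 81.8 and 527 CPM (2.69, 2.52 to 2.86), S100a6 at 502 and 1664 CPM (1.73, 1.66 to 1.80) and S100a13 at 152 and 177 CPM (0.22, 0.08 to 0.35). A pool of myeloid cells other than neutrophils joined the macrophage or monocyte-like, dendritic cell-like and osteoclast-like classes (26 Control, 107 OTM). It had S100a4 at 1187 and 4207.5 CPM (1.83, 1.67 to 1.98) and S100a13 at 113 and 137 CPM (0.27, -0.23 to 0.83). Its 15 osteoclast-like cells, all from OTM, held 5702 of the 11967 OTM UMIs of S100a4. These ratios thus compare pools of unlike makeup. Unnamed m1 was not part of the pool.

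Endothelial-like cells (14 Control, 204 OTM) held S100a6 at 2096 and 2469 CPM, S100a10 at 1229.7 and 1751 CPM and S100a13 at 299 and 338 CPM, none past 2-fold. Without the Control cell with most UMIs of each, the log2 ratio was 1.00 for S100a6 and 0.96 for S100a10. S100a4 was called higher, at 49.3 CPM (14 UMIs) and 211 CPM (2.10, 1.34 to 2.97). The 15 fibroblast markers were also higher in OTM, from 109 CPM with 8 detected (Pdgfra, Fmod, Scx, Tnmd, Fbln1, Dpt and Mfap5 at 0) to 1101 CPM with all 15 detected, and their part was not tested. S100a8 was at 7.05 CPM (2 UMIs) and 155 CPM (4.46, 2.60 to 7.50) and S100a9 at 28.2 and 195 CPM (2.79, 1.81 to 4.01), but 3 of 204 OTM cells held 96.2% of the pair's UMIs, and 2 of the 3 were called doublets. Without these 3 cells the pair was at 35.2 CPM in Control and 13.5 in OTM. The 3 cells held a median of 60 neutrophil-marker UMIs, against 0 in the other OTM cells, and 2 of the 3 held any. In the whole class the 14 neutrophil markers summed to 74.0 CPM (6 detected; Retnlg, Mmp9, Mmp8, Ngp, Ltf, Cd177, Ly6g and Stfa2l1 at 0) and 53.1 CPM (12 detected; Ly6g and Stfa2l1 at 0). Of 7 members with enough UMIs 3 were called higher and 0 lower, the 3 including this pair, against 6.95% and 11.3% of 7319 genes. In this class 3 UMIs were 10.6 CPM in Control and 0.52 CPM in OTM, so genes with few OTM UMIs could be called lower by the floor alone. With at least 50 UMIs needed, 10.2% of 5006 genes were called higher and 1.94% lower.

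**Figure D4:**
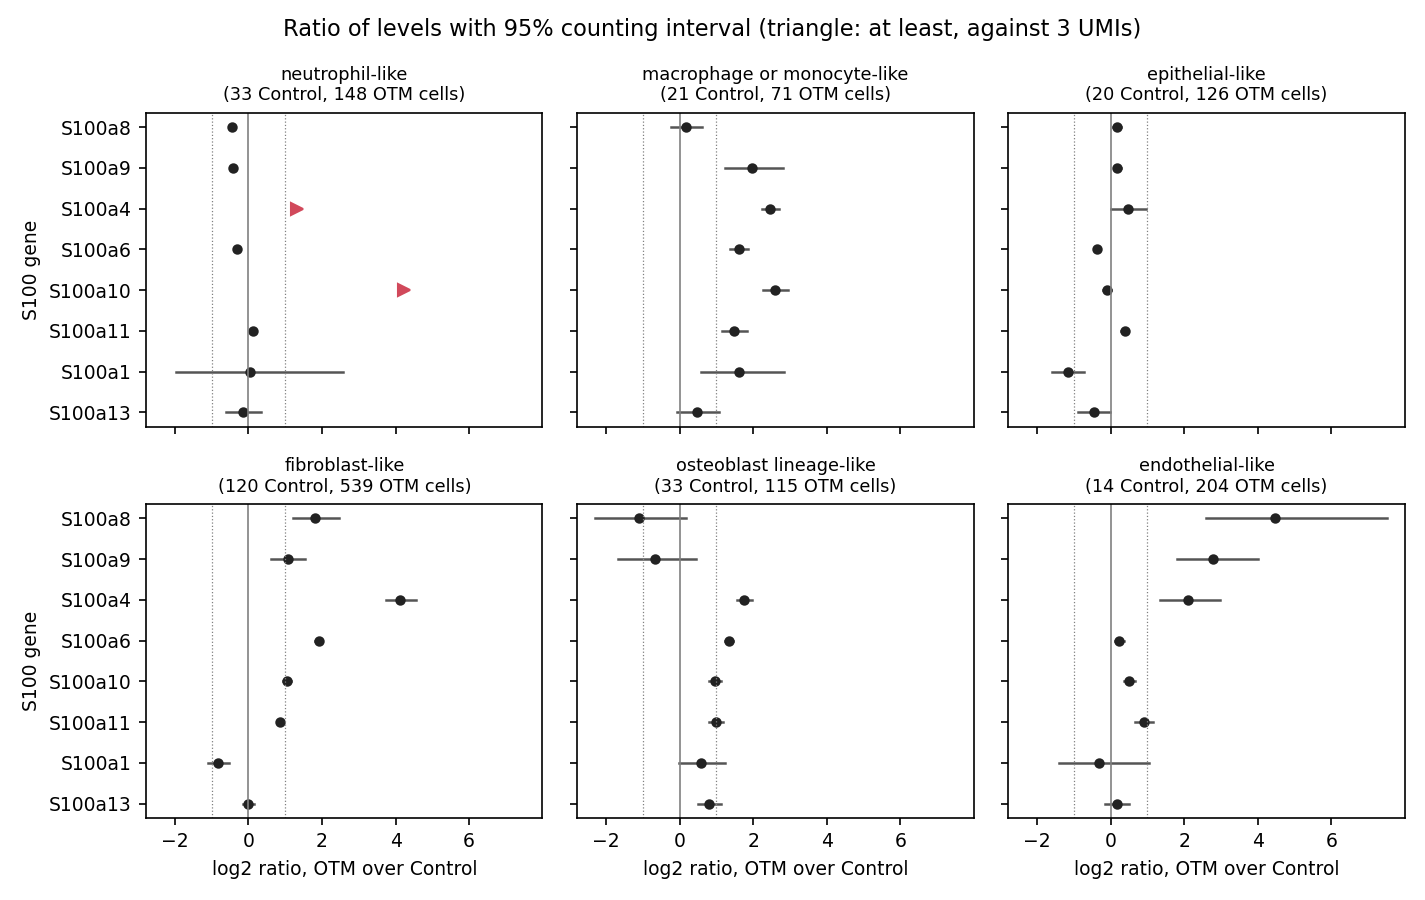
Log2 ratio of OTM over Control (horizontal axis) of each S100 gene in 6 classes, with 95% counting intervals as bars and dotted lines at 2-fold. Triangles are ratios against 3 UMIs where Control had 0, and are not limits of a counting interval. S100a4 lies right of the 2-fold line in every class but the epithelial-like one, where its ratio is 0.47.

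Epithelial-like cells (20 Control, 126 OTM) were the second site of calprotectin expression. S100a8 was at 1912 and 2155 CPM (0.17, 0.07 to 0.28) and S100a9 at 2474 and 2803 CPM (0.18, 0.09 to 0.27). The near-equal sums hid very uneven cells: in Control 1 cell held 90.0% of the pair's UMIs (1663 UMIs), and in OTM the top cell held 40.9% (11191 UMIs). Without the Control cell with most UMIs, S100a8 was at 164 CPM in Control, and the log2 ratio became 3.72. The class ratio of the pair thus rests on that 1 cell. Cells with at least 10 UMIs of the pair were 5 of 20 in Control and 38 of 126 in OTM, and held 98.9% and 99.6% of its UMIs. Cells with an S100a8 UMI were 40% and 45.2%, and 26.3% and 26.4% after thinning, against 0% and 3.70% of erythroid-like cells, at median depths of 14008.5 and 34944 UMIs.

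Most UMIs of the pair lay in one sub-cluster. Epithelial sub-cluster e0, led by Sprr2f, Sprr2d, Cnfn and Crct1 of the cornified layer and the antimicrobial gene Lcn2, had 8 Control and 20 OTM cells and 99.7% and 87.6% of the class's UMIs of the pair. It held all 5 Control cells but 15 of the 38 OTM cells with at least 10 UMIs of the pair, and the others were spread over 6 sub-clusters. Sub-cluster e6, led by Amtn, Krt42 and Ambn, genes of the epithelium that faces the tooth, had 9 and 6 cells, with 2 and 0 UMIs of S100a8. S100a6 showed the reverse in Control, at 1150 CPM in e0 and 13478 CPM in e6, and was at 6080 and 9433 CPM in OTM. Cells with at least 10 UMIs of the pair held a median of 1 neutrophil-marker UMI in Control and 0.5 in OTM, and 3 of 5 and 19 of 38 held any. In the whole class the 14 neutrophil markers, of which Lcn2 is one, summed to 38.0 CPM (6 detected; Csf3r, Cxcr2, Mmp8, Ltf, Camp, Cd177, Ly6g and Il1r2 at 0) and 373 CPM (10 detected; Mmp8, Cd177, Ly6g and Stfa2l1 at 0). Without cells that held at least 3 neutrophil-marker UMIs, the log2 ratio of S100a8 in epithelial-like cells was 2.48. Lcn2, a leading gene of e0, counts among those UMIs. The filter can thus take out e0 cells by a gene of their own, so no reading is made of this ratio. Sub-cluster e7, with 13 OTM cells, was led by Col1a1 and Col1a2, collagen genes of stromal cells. S100a9 gave 56.4% of the pair in Control and 56.5% in OTM. Without the cell with most UMIs these shares were 64.7% and 51.5%, so they were set by that cell and are not compared with the 52.5% and 52.8% of neutrophil-like cells.

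**Figure D5:**
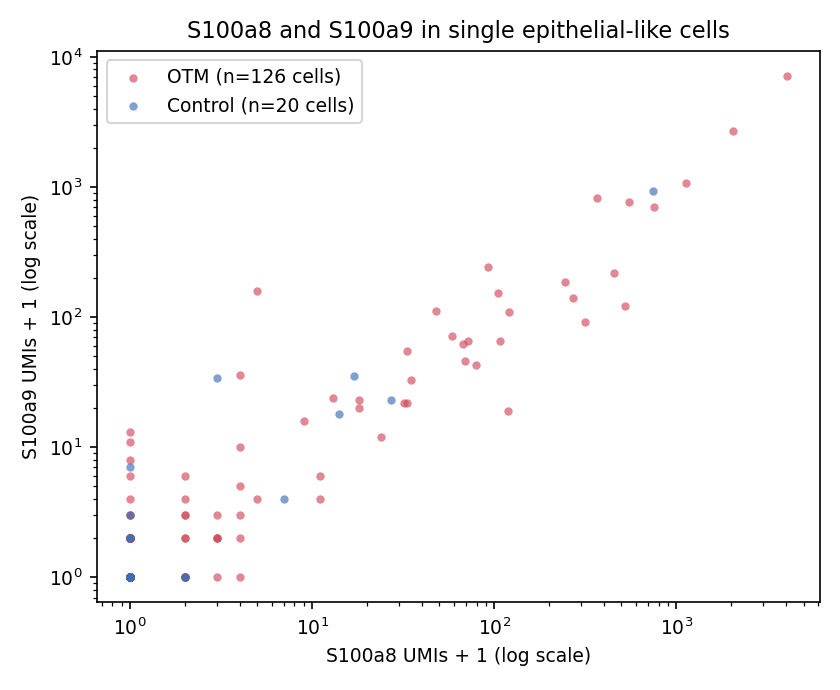
UMIs + 1 of S100a8 (horizontal) against S100a9 (vertical, both log scales) in single epithelial-like cells of the Control (20 cells) and OTM (126 cells) libraries. A few cells hold nearly all UMIs, with 1 Control cell and several OTM cells far above the rest.

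Of the other members 1 passed 2-fold in epithelial-like cells. S100a6 was at 10228 and 7976 CPM (-0.36, -0.40 to -0.31), S100a10 at 1871 and 1742 CPM (-0.10, -0.21 to 0.00) and S100a11 at 2593 and 3381 CPM (0.38, 0.29 to 0.47). S100a1 was the 1 member called lower, at 128 CPM (54 UMIs) and 57.1 CPM (315 UMIs), a log2 ratio of -1.17 (-1.59 to -0.72). S100a4 was at 97.4 and 135 CPM, and without the Control cell with most UMIs its log2 ratio was 1.07. Of 8 members 0 were called higher and 1 lower, against 8.91% and 5.68% of 7096 genes, and the median log2 ratio was 0.03, beside 0.07 for all genes.

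Over the 16 classes with cells in both libraries, S100a4 was higher in OTM in 13, lower in 1 and without a UMI in 2. S100a11 was higher in 15, S100a10 in 14, S100a6 in 11, S100a13 in 11 and S100a1 in 10. S100a8 was higher in 7 and S100a9 in 6. The intervals lay above 0 in 12 classes for S100a4 and S100a11, in 11 for S100a10, in 9 for S100a6, in 4 for S100a9 and in 3 for S100a8, S100a1 and S100a13. They lay below 0 in 4 classes for S100a9, 3 for S100a8 and S100a6, 2 for S100a1, 1 for S100a4 and S100a13 and 0 for S100a10 and S100a11. The 16 include the unnamed clusters 17, m1 and 9, the last with median depths of 744.5 and 2144 UMIs. These comparisons all use the same 2 libraries, some classes held only 2 to 6 Control cells, and the median log2 ratio of all genes was above 0 in the 6 main classes (0.05 to 0.43), so the counts of classes are a description. In erythroid-like cells, S100a4 (0 and 183 UMIs) and S100a10 (0 and 134 UMIs) rested on 1 OTM cell that held 99.5% and 99.3% of them.

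Genes known to work with the family did not all move with it. Of 8 annexins, the lipid-binding partners of S100A6, S100A10 and S100A11, 6 of 7 with enough UMIs were called higher in macrophage or monocyte-like cells, where Anxa1 was at 189 and 716 CPM (1.92), Anxa2 at 273 and 944 CPM (1.79) and Anxa5 at 406 and 851 CPM (1.07). Of all genes of that class 22.6% were called higher, and the median log2 ratio was 1.55 for the annexins and 0.43 for all genes. These ratios too are of a whole class of differing makeup, with 16 of 21 Control and 13 of 71 OTM cells in cluster m0. Anxa1 was the 1 annexin called in fibroblast-like cells, at 442 and 918 CPM (1.05), and in osteoblast lineage-like cells, at 410 and 1133 CPM (1.47), each time 1 of 8 against 6.88% and 9.89% of all genes. Anxa2, which pairs with S100a10, was not called in those classes, at 407 and 510 CPM and at 327 and 614 CPM. No annexin was called in neutrophil-like, endothelial-like or epithelial-like cells.

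The receptors and signalling genes of S100A8 and S100A9 (8 listed) were called higher in 2 of 6 in neutrophil-like cells: Cd14, a co-receptor of innate immunity, at 800.3 and 2701 CPM (1.76, 1.59 to 1.93), and Tlr4, the receptor it serves, at 41.7 and 101 CPM (1.28, 0.52 to 2.13). Of all genes of that class 22% were called higher, and the list's median log2 ratio was 0.29 against 0.35 for all genes. Ly96 (38.8 and 81.0 CPM) and Cd14 (35.2 and 99.6 CPM) were called in endothelial-like cells, 2 of 3 with enough UMIs, where 6.95% of all genes were. Of these receptor and signalling genes, 1 of 5 with enough UMIs was called higher in fibroblast-like cells and 0 of 4 in osteoblast lineage-like cells. Of the intracellular and cell surface partners (13 listed), 1 of 8 with enough UMIs was called higher in fibroblast-like cells and 2 of 9 in osteoblast lineage-like cells. Of all genes of these 2 classes, 6.88% and 9.89% were called higher. Of 13 intracellular and cell surface partners, Plaur, the urokinase receptor, was called higher in fibroblast-like cells (75.3 and 202 CPM, 1.43) and in osteoblast lineage-like cells (42.0 and 148 CPM, 1.82), while Myh9, the myosin bound by S100A4, was at 191 and 208 CPM in fibroblast-like cells (0.12, -0.02 to 0.26). Il1a, exported with the help of S100A13, was called higher in neutrophil-like cells (41.7 and 340 CPM, 3.03). The neutrophil-like ratios of Cd14, Tlr4 and Il1a are of the whole class, whose makeup differed between the libraries. Cluster 6 held 12 of its 33 Control and 97 of its 148 OTM cells, and values within clusters are not given for these genes. Il1a was also called higher in epithelial-like cells (2.37 and 53.5 CPM, from 1 Control UMI, log2 ratio 4.49, 2.00 to 9.80). Of these partners, 2 of 6 with enough UMIs were called higher in neutrophil-like cells and 2 of 8 in epithelial-like cells. Of all genes of these classes, 22% and 8.91% were. Of the S100 genes outside the 8, S100a16 was called higher (49.5 and 103 CPM, 1.06) and S100b lower (8.86 and 3.68 CPM, -1.27) in fibroblast-like cells. They were the 2 with enough UMIs there, against 6.88% higher and 5.66% lower among all genes. S100a7a was called higher in epithelial-like cells (1 and 123 UMIs, log2 ratio 3.23, 0.73 to 8.55), 1 of 3 with enough UMIs against 8.91% of all genes.

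Likeness of pattern was measured as Pearson r of log2(CPM + 10) over the 17 class and library pools with at least 20 cells, among 13677 genes. The pools share 2 libraries, and r describes them only. S100a8 and S100a9 were each other's most like gene (0.99), followed for S100a8 by Dgat2 (0.95) and Tbc1d2 (0.95) and for S100a9 by Tbc1d2 (0.96) and Pglyrp1 (0.95), an antibacterial granule protein. S100a6 was most like Anxa2 (0.91), Fosl1 (0.90) and Anxa1 (0.90), and S100a11 most like Anxa1 (0.91), Alas1 (0.90) and Zyx (0.89). S100a10 was most like Prdx1 (0.95), Wdr83os (0.93) and Ufm1 (0.92), and S100a4 less closely like Spr (0.84), Ddx51 (0.80) and Pepd (0.80). For S100a1 the genes were Mt1 (0.87), Tbc1d7 (0.87) and Pigyl (0.87), and for S100a13 Sec24b (0.91), Exoc5 (0.86) and Ski (0.84). For the neighbours S100a1 and S100a13, whose promoter windows share 204 bases, r was 0.16.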

How the data were processed

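Periodontal ligament of the Control and OTM groups was profiled with the 10x Genomics 3′ kit, 1 library per group. The deposited values were whole-number counts of UMIs per gene and barcode, not normalized, and the authors made them with Cell Ranger (7.0.1 in the file headers). GRCm38 and Seurat are named in the submitters' processing notes, and the version of Seurat is not given in the sources used here. A cell needed 200 genes or more and no more than 20% of its UMIs from mitochondrial genes. Scrublet called 2 Control and 10 OTM doublets, which were kept. Both libraries were clustered together without S100 genes (scanpy 1.11.5, leidenalg 0.10.2; 2000 variable genes, 30 components, 15 neighbours, resolution 1.0, seed 0). Clusters were named from 23 marker lists with a score of at least 0.5 and at least 3 detected markers, and mononuclear cells and lymphocytes were sub-clustered at resolution 0.8. The pseudocount of 10 CPM used to rank leading genes was set after the clusters were seen. UMIs were summed by class, with exact Poisson, Clopper-Pearson and conditional binomial intervals. For the 2-fold call, any sum below 3 UMIs, not only 0, was set to 3. Control class totals were smaller, so 3 UMIs stood for a higher level there. A gene with few OTM UMIs and under 3 in Control could thus be called lower, or miss a call as higher. Log2 ratios printed with an interval use the sums as counted. Where a sum was 1 or 2, the call therefore used a smaller ratio, as for S100a8 in endothelial-like cells (3.87 against 4.46). Depth per library and class is given beside the values, and intervals cover counting error only. Code was tested on simulated data. The 8 members are all named. From partner lists, genes past 2-fold or among the most abundant may be named, and the 3 genes most like each member. The members, gene lists and partner lists were chosen with earlier results of these data known. Alternatives covered the filter, doublets, clustering, class assignment, weighting, depth, scaling, and, added after seeing the data, cells with neutrophil-marker UMIs and single cells with most UMIs. Protein sequences were not used here.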

Additional observations from a re-analysis of the deposited data

How the results depend on the processing

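No paired analysis was possible because each group was 1 library. Of the log2 ratios of single members under the alternatives, 489 stayed within the counting interval, 228 moved outside it and 29 turned sign after a call. S100a4 and S100a6 in fibroblast-like cells stayed at least 2-fold higher in all 15 settings that gave a value (2.01 to 4.85 and 1.18 to 2.27). S100a4, S100a6, S100a10 and S100a11 in macrophage or monocyte-like cells did so in 15 of 16. Clustering each library alone gave no value for fibroblast-like and osteoblast lineage-like cells.

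The number of members past 2-fold in neutrophil-like cells (2) became 1 with the class from each cell's own marker score, in the cluster with most Control cells and without the OTM cell with most UMIs, and 0 by the mean over cells and after thinning. In macrophage or monocyte-like cells (6) it became 0 in the cluster with most Control cells. In fibroblast-like cells (5) it became 2 with the cells' own score and after thinning, and 3 in the cluster with most Control cells and without the top OTM cell. In osteoblast lineage-like cells (2) it became 0 with no filter, the stricter filter, resolution 0.6 and the cells' own score, and 1 with doublets removed, resolution 1.5, the mean over cells, thinning and 1 cluster alone. In endothelial-like cells (3) it became 1 with each library clustered alone, after thinning and without cells with neutrophil-marker UMIs. In epithelial-like cells (1) it became 3 with no filter and at resolution 1.5, 2 with the cells' own score and without cells with neutrophil-marker UMIs, 4 without the Control cell with most UMIs, and 0 after thinning and with median ratio scaling.

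Called ratios that turned sign were as follows. The log2 ratio of S100a4 in neutrophil-like cells was -0.00179 with the cells' own score and -0.24 without the top OTM cell, and that of S100a10 was -0.73 after thinning. In macrophage or monocyte-like cells, cluster m0 alone gave S100a9 -0.844, S100a4 -0.0813, S100a10 -0.798 and S100a11 -0.0813, and thinning gave S100a1 -0.11. The log2 ratio of S100a8 in fibroblast-like cells and the log2 ratio of S100a9 in fibroblast-like cells were -0.79 and -1.09 with no filter, -0.76 and -1.15 with the stricter one, -0.66 and -1.02 with the cells' own score, -1.42 and -0.29 after thinning, -0.71 and -0.40 in cluster 3 alone and -0.67 and -1.04 without cells with neutrophil-marker UMIs. In osteoblast lineage-like cells S100a4 was -0.50 with no filter, -0.20 at resolution 0.6 and -1.08 with doublets removed, at resolution 1.5 and in cluster 7 alone. In endothelial-like cells S100a8 and S100a9 were -0.71 and -1.26 with each library clustered alone and -1.22 and -1.52 without cells with neutrophil-marker UMIs. Beyond the settings built from fewer cells or clusters, the cause was not tested.

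Scaling by the median ratio raised every log2 ratio by 0.40 in macrophage or monocyte-like, 0.14 in endothelial-like and 0.24 in epithelial-like cells, and moved the others by less than 0.1. Among all genes, 33.8% to 51.9% were called lower in the 6 classes when 1 UMI was enough and 0.49% to 7.51% when 50 were needed, against 1.56% to 11.3% at 20 UMIs. Sums below the floor used for calls were raised to it, and the floor stood for a higher level in Control, whose class totals were smaller. When 1 UMI was enough, genes with few UMIs in both libraries were thus called lower by the floor alone. The shares at 1 UMI are therefore no measure of lower expression. Control held 33 cells or fewer in 5 of the 6 classes, and there, as where single cells held most UMIs of a member, few cells limit the values.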
